A study of Mus musculus with 3 samples.

Results

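Interferon-stimulated genes were read in mouse gastrocnemius after HF feeding with or without added iron. They are the genes that cells switch on when interferon reaches them. A list of 34 such genes was matched by symbol to the probe sets of the array, a probe set being a group of short probes against 1 transcript. Of these, 32 genes had at least 1 probe set annotated with that gene alone, 50 probe sets in all, out of 18193 genes measured. Isg15 was left out because its only probe set is also annotated to Gm9706, and Ifi44 had no probe set under its own symbol in the annotation used here. Male C57BL/6J mice started their diets at 6 weeks of age and kept them for 15 weeks. The HF + SFC group received a diet with 60% of its energy as fat and 0.023% (w/w) sodium ferrous citrate (SFC), an iron salt. The HF group received the same diet without SFC, and the Control group a diet with 10% of its energy as fat. An age of 21 months stands in the labels of every group, which does not match those weeks. Each group was a mix of all its samples on 1 array, 3 arrays in all, so spread between mice could not be measured, no statistical test was possible, and every difference below is between 3 single arrays without a replicate check.

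Interferons are secreted proteins that warn neighbouring cells of infection. Type I interferons act through the IFNAR receptor, Janus kinases and a complex of STAT proteins with IRF9, which binds a promoter element called ISRE. Interferon-gamma acts through another receptor and STAT dimers that bind an element called GAS. The induced genes encode sensors of viral RNA, proteins that block viral translation or budding, GTPases that attack the vacuoles of intracellular microbes, and chemokines. Most cells, muscle fibres included, keep some of these genes at a low level without infection, and leukocytes and endothelium within the muscle express them as well. Whole muscle was measured, so fewer cells of a type and less RNA per cell cannot be told apart.

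The deposited values are MAS5 signals, intensities on a linear scale that the authors set to the same trimmed mean on every array. Their median was 68.0 on the HF + SFC array, 67.4 on the HF array and 63.6 on the Control array. Each gene was read from its brightest probe set, the one whose log2 signal averaged highest on the arrays. A gene was called bright when that mean lay above the mean of the 3 array medians of log2 signal without control probe sets, a signal of 66.1, and dim otherwise. This left 25 bright and 7 dim interferon-stimulated genes, against 11367 bright genes in all. The tissue carried its own markers, as all 11 fast fibre markers were bright. The ratio of 3' to 5' beta-actin signal, a measure of RNA integrity, was 1.15 on the HF + SFC array, 1.52 on the HF array and 1.09 on the Control array, while that of Gapdh lay between 0.820 and 0.842. The part of this ratio in the differences below was not tested.

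The bright interferon-stimulated genes as a group had median ratios between arrays within 0.1 of those of all bright genes on the log2 scale. With the mean of all probe sets in place of the brightest, the median in HF against Control was 0.18, beside 0.00078 over all genes past the limit. In HF against Control, 13 of 25 lay above a ratio of 1 and 12 below it, and their median log2 ratio was 0.0022, beside -0.012 over all bright genes. Set against HF, 15 were above and 10 below in HF + SFC, the median being 0.080 beside 0.0083. Relative to Control, 15 were above and 10 below in HF + SFC, the median being 0.029 beside 0.0010. Of all bright genes, 48.1%, 51.6% and 50.2% lay above a ratio of 1 in these comparisons, in the same sequence. The first 2 comparisons share the HF array, so a reading that is off on it enters both with opposite signs.

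**Figure D1:**
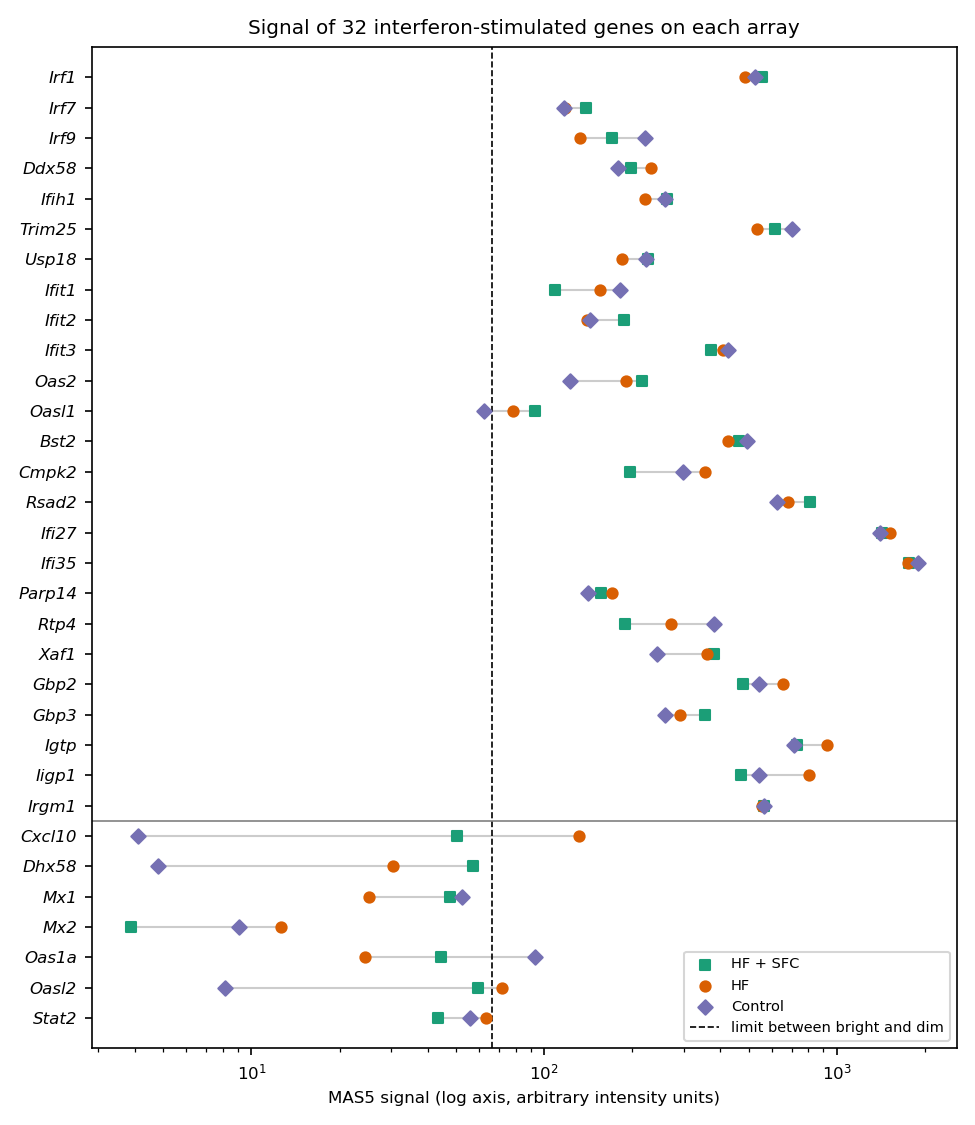
MAS5 signal (log axis) of each measured interferon-stimulated gene on the HF + SFC (squares), HF (circles) and Control (diamonds) arrays, 1 pooled sample each, with bright genes above the horizontal line and dim genes below it. The dashed line is the limit of 66.1, and the 3 arrays lie close together for most bright genes and far apart for dim genes such as Cxcl10.

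Few members passed 1.5-fold, the threshold used by the study, on their brightest probe set. In HF against Control only Oas2 was higher by that much and only Irf9 lower by that much, 1 of 25 each, where 5.49% and 3.36% of all bright genes passed. Iigp1 (1.49-fold) and Xaf1 (1.48-fold) lay just under the threshold. Between HF + SFC and HF none of the 25 was higher past the threshold (2.96% of all bright genes) and 2 were lower past it (3.69%), Cmpk2 and Iigp1. Between HF + SFC and Control 3 were higher (4.41%), Oas2, Xaf1 and Oasl1, and 3 were lower (3.71%), Rtp4, Ifit1 and Cmpk2. Each count is of 3 genes or fewer, and nothing is read from its distance to the share over all bright genes.

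**Figure D2:**
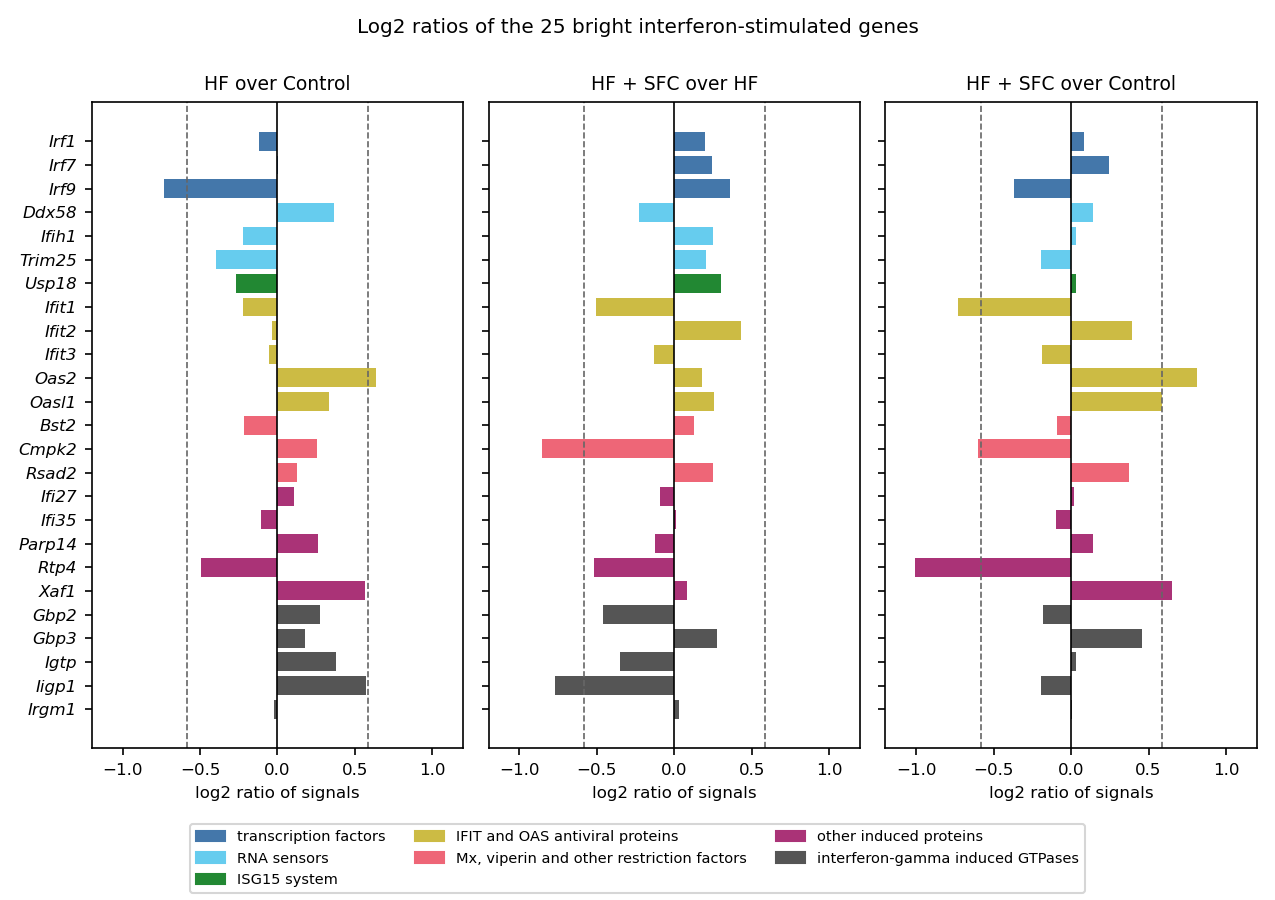
Log2 ratio of signals for the 25 bright genes, coloured by role, with HF over Control on the left, HF + SFC over HF in the middle and HF + SFC over Control on the right; dashed lines mark 1.5-fold. The bars point both ways in every panel, with Irf9 at -0.73 on the left, Cmpk2 at -0.86 in the middle and Rtp4 at -1.01 on the right as the lowest.

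The width of the scatter depended on the signal. Among 3880 genes with a mean signal of 256 to 1024, the middle 95% of log2 ratios ran from -0.55 to 0.61 in HF against Control and from -0.52 to 0.46 in HF + SFC against HF. Among 3517 bright genes below that range it ran from -0.90 to 1.10 and from -0.97 to 0.92. Against the genes of its own signal range, none of the 25 members lay outside the middle 95% in HF against Control. Cmpk2, Iigp1 and, by a margin of under 0.01, Rtp4 lay below it in HF + SFC against HF. Cmpk2 and Rtp4 also lay below it, and Xaf1 above it, in HF + SFC against Control.

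**Figure D3:**
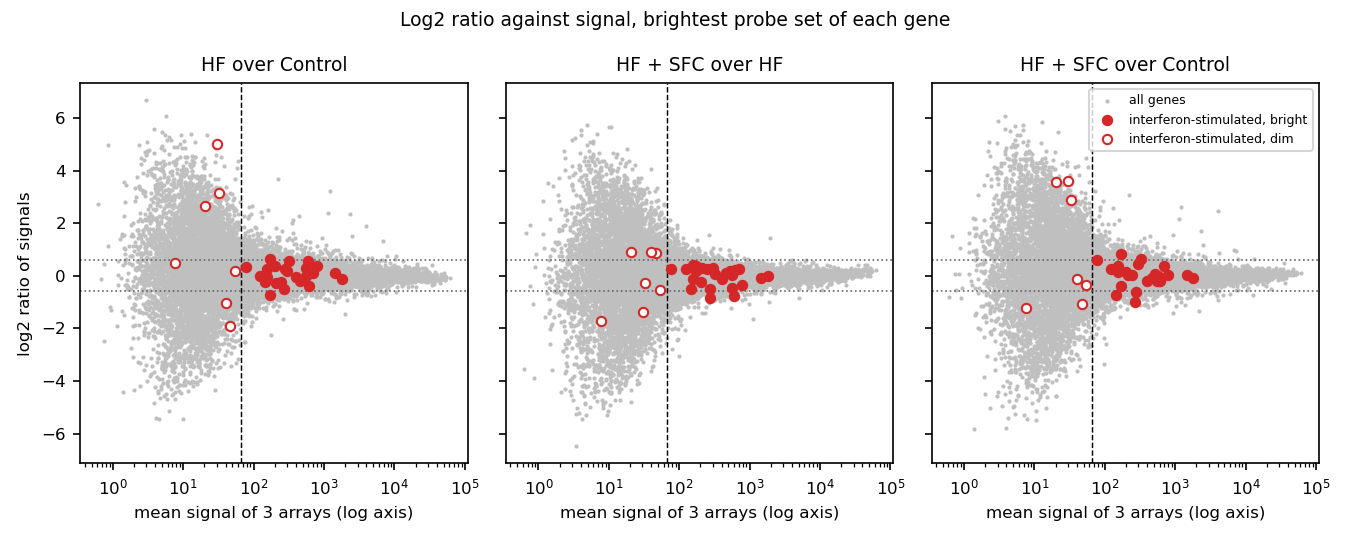
Log2 ratio against the mean signal of the 3 arrays (log axis) for all 18193 genes (grey) and for bright (filled) and dim (open) interferon-stimulated genes. Dotted lines mark 1.5-fold and the dashed line the limit of 66.1; the grey cloud widens below that limit, and dim members such as Cxcl10, at 5.0 on the left, lie within or at the edge of it.

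Among the bright transcription factors that carry the interferon signal, Irf9 differed most. Irf9, the DNA-binding partner of the STAT proteins, had a signal of 170 in HF + SFC, 132 in HF and 220.3 in Control. The HF array was thus the lowest, at 0.601 of Control, and HF + SFC lay between them at 0.773 of Control. Irf1, a factor induced by interferon-gamma, had 556 in HF + SFC, 484 in HF and 525 in Control. Irf7, which amplifies the production of type I interferon, had 139 in HF + SFC, 117.4 in HF and 117.2 in Control. All 3 bright factors were therefore higher in HF + SFC than in HF, by log2 ratios of 0.20 for Irf1, 0.24 for Irf7 and 0.36 for Irf9, each under 1.5-fold. Of all bright genes, 51.6% lay above a ratio of 1 in that comparison, and nothing is read from a count of 3. Stat2, which joins Irf9 in the complex, was dim and went the other way. Its log2 ratio of HF + SFC to HF was -0.54, and -2.36 on its second probe set, also dim.

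The sensors of viral RNA and their partners showed small differences of either sign. Ifih1, which encodes the double-stranded RNA sensor MDA5, had 263 in HF + SFC, 221 in HF and 258 in Control. Ddx58, which encodes the sensor RIG-I, had 198 in HF + SFC, 231 in HF and 179 in Control, so that the HF array was the lowest for Ifih1 and the highest for Ddx58. Trim25, a ubiquitin ligase that activates RIG-I, had 613 in HF + SFC, 532 in HF and 702 in Control. Its next probe set gave 430.3 in HF + SFC, 347 in HF and 422 in Control, with the HF array again the lowest. Usp18, the protease that removes ISG15 from proteins and dampens the type I receptor, had 227 in HF + SFC, 184 in HF and 222 in Control. Its HF signal was 0.829 of Control, and HF + SFC was at 1.02 of Control.

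The IFIT proteins bind viral RNA and halt its translation, and their 3 genes did not move together. Ifit1 had 109 in HF + SFC, 155 in HF and 181 in Control, and HF + SFC was at 0.602 of Control. Ifit3 had 373 in HF + SFC, 408 in HF and 424 in Control, the same order with a smaller distance. Ifit2 had 188 in HF + SFC, 139.9 in HF and 144 in Control, so that here the HF + SFC array was the highest, at 1.31 of Control. Ifit2 and Ifit3 are next to each other on chromosome 19, and Ifit1 lies 3 protein-coding genes beyond Ifit3. The promoters of Ifit1 and Ifit3 are shown because these genes share their order over the arrays, with capitals for each match to the core of the ISRE (GAAA, any 2 bases and GAAA again, on either strand). They are RefSeq sequences of build GRCm38.p6 from 250 bases before to 50 bases after the start of the gene, written 5′ to 3′ on the strand of the gene. The Ifit1 window (chr19:34640639-34640938, + strand) holds its matches 104 and 85 bases before the start, and the Ifit3 window (chr19:34583279-34583578, + strand) 156 and 122 bases before it.
Ifit1: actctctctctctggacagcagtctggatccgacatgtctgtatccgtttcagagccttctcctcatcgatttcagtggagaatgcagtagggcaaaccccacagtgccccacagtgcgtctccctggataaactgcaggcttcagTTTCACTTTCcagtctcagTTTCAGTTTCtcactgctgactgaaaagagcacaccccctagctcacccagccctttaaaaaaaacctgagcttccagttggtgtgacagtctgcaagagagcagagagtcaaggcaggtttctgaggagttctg
Ifit3: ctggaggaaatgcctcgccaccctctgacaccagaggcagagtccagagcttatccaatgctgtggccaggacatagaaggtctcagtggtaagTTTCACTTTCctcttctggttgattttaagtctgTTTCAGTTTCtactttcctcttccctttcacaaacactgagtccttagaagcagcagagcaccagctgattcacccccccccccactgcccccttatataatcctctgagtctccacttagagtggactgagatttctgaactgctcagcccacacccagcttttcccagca
In both windows the matches read TTTCACTTTC and TTTCAGTTTC, in this order. In 2 windows of Ifit2, at separate starts, no such match was found.

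Of the oligoadenylate synthetases, which make the second messenger that activates RNase L on viral RNA, 2 were bright. Oas2 had 215 in HF + SFC, 190.0 in HF and 122 in Control, and thus was higher in both HF-fed groups, by 1.76-fold in HF + SFC and 1.55-fold in HF. Oasl1, a relative without synthetase activity that limits translation of Irf7, had 93.3 in HF + SFC, 78.3 in HF and 62.1 in Control. It followed the same order, just past the threshold in HF + SFC and at 1.26-fold in HF against Control. Both were read on a single probe set, and Oasl1 lay close to the limit between bright and dim. Oas1a and Oasl2 were dim.

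Among proteins that restrict viruses at the membrane or deplete their building blocks, Cmpk2 had the largest difference. Cmpk2, a mitochondrial nucleotide kinase, had 196 in HF + SFC, 355 in HF and 297 in Control. The HF + SFC array was the lowest, at 0.552 of HF and 0.660 of Control. A second probe set near the limit of brightness gave 69.0 in HF + SFC, 79.7 in HF and 60.2 in Control, so that HF + SFC was at 0.866 of HF. Rsad2, which encodes viperin, an enzyme with an iron-sulfur cluster that makes a chain-terminating nucleotide, had 809 in HF + SFC, 681 in HF and 625 in Control. On the brightest probe sets only, the gene next to Cmpk2 on chromosome 12 thus had its highest signal on the array where Cmpk2 had its lowest. Its other probe sets gave 257 and 235 in HF + SFC, 295 and 229.8 in HF, and 247 and 199 in Control, so the 3 agreed that HF was above Control but not on the direction of HF + SFC against HF. Bst2, which encodes tetherin and holds budding virus at the cell surface, had 465 in HF + SFC, 426 in HF and 494 in Control.

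Other induced genes included the bright member with the lowest ratio of HF + SFC to Control. Rtp4, a chaperone of membrane receptors, had 189 in HF + SFC, 271 in HF and 382 in Control, stepping down to 0.496 of Control in HF + SFC. A dim second probe set of Rtp4 gave 17.8 in HF + SFC, 36.8 in HF and 15.1 in Control, a different order. Xaf1, which promotes apoptosis by opposing XIAP, had 380.3 in HF + SFC, 359.7 in HF and 243 in Control. Both HF-fed groups were above Control for Xaf1, by 1.57-fold in HF + SFC and 1.48-fold in HF. Its dim probe set gave 44.2 in HF + SFC, 62.0 in HF and 53.7 in Control. Parp14, an ADP-ribosyltransferase, had 156 in HF + SFC, 170.0 in HF and 142 in Control. Ifi27, a mitochondrial protein, had 1424 in HF + SFC, 1518 in HF and 1408 in Control, and Ifi35 had 1763 in HF + SFC, 1753 in HF and 1888 in Control. On these probe sets of Ifi27 and Ifi35 the highest array was at most 1.08 times the lowest. The other bright probe set of Ifi27 gave 959 in HF + SFC, 1072 in HF and 845 in Control. The other bright ones of Ifi35 gave 501 and 400 in HF + SFC, 544 and 427 in HF, and 503 and 473 in Control.

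The GTPases that interferon-gamma induces included a set that was highest in HF. Iigp1, an immunity-related GTPase that coats parasite vacuoles, had 472 in HF + SFC, 805 in HF and 542 in Control. The HF array stood above the other 2, at 1.49 times Control, and HF + SFC was at 0.587 of HF. Its other probe set gave 374 in HF + SFC, 577 in HF and 358 in Control, and so kept both directions, with HF at 1.61 times Control. Igtp, another immunity-related GTPase, had 729.7 in HF + SFC, 929 in HF and 714.5 in Control. Gbp2, a guanylate-binding protein, had 476 in HF + SFC, 656 in HF and 541 in Control, and its second probe set gave 393 in HF + SFC, 433 in HF and 391 in Control. In all 3 genes the HF + SFC signal was below HF and between 0.872 and 1.02 of Control. Irgm1, which regulates the other immunity-related GTPases, did not share this pattern, with 565 in HF + SFC, 554 in HF and 563 in Control. Gbp3, separated from Gbp2 by 1 protein-coding gene on chromosome 3, had 354 in HF + SFC, 292 in HF and 259 in Control. It stepped upward instead, to 1.37 times Control in HF + SFC. The summed signal of 22 leukocyte markers, 9 of them dim, was also highest in HF, with 4474 in HF + SFC, 4732 in HF and 3821 in Control. Csf1r and Lyz2 had the largest of these signals, 1045 and 1039 in HF. In HF + SFC against Control, 9 of the 13 bright markers lay above a ratio of 1, beside 50.2% of all bright genes. Their median log2 ratio there was 0.25. The part of leukocytes in the GTPase signals was not tested.

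The promoters of these GTPases are shown as RefSeq windows of the same build and length, with matches to the ISRE core in capitals, because Igtp and Gbp2 differ from Irgm1 and Gbp3 in their order over the arrays. They lie at chr11:58199306-58199605, + strand for Igtp, chr3:142620413-142620712, + strand for Gbp2, chr11:48871371-48871670, - strand for Irgm1 and chr3:142559794-142560093, + strand for the first of 2 starts of Gbp3.
Igtp: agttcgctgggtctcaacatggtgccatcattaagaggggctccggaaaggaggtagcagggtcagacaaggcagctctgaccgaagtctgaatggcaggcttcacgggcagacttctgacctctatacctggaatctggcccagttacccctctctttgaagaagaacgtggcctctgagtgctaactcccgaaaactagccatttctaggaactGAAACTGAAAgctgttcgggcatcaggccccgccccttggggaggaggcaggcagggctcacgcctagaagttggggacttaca
Gbp2: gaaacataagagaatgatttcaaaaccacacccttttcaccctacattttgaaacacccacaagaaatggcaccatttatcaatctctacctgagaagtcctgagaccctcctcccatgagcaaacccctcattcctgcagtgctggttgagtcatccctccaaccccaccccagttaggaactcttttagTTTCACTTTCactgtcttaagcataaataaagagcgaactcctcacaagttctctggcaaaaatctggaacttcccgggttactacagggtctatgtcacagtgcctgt
Irgm1: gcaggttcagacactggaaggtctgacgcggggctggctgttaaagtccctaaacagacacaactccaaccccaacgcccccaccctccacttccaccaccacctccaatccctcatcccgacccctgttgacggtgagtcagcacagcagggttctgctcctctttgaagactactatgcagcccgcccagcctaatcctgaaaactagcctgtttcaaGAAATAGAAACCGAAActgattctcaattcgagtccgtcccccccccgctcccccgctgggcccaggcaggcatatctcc
Gbp3: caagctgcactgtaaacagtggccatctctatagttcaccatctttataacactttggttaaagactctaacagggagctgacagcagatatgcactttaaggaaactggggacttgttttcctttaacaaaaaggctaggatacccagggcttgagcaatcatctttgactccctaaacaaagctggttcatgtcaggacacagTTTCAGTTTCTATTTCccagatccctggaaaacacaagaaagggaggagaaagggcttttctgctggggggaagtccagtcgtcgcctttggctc
Igtp has 1 match 34 bases before the start and Gbp2 1 match 59 bases before it. Irgm1 has 2 matches that share bases, beginning 30 and 24 bases before the start. The window of Gbp3 shown likewise has 2, beginning 45 and 39 bases before it. The window at the other start of Gbp3 (chr3:142560106-142560405, + strand) holds none, and no promoter was found for Iigp1. A relation between the matches and the order over the arrays was not tested. The Igtp window also holds TTCTAGGAA, a match to the GAS pattern TTCNNNGAA (its own reverse complement), 45 bases before the start. Promoters were found in the table for 25 of the 34 listed genes, and 14 of them held the ISRE core, beside 3.99% of 27025 genes with a promoter there. The GAS pattern was found for 6 of the 25, beside 9.55%, and in Bst2 it overlaps a match to the ISRE core. A match describes the letters only, and genes with matches included some that were higher and some that were lower in each comparison.

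Members with several probe sets gave a check on single readings. Of 7 members with at least 2 bright probe sets, 6 kept 1 sign over all of them in HF against Control and 5 in HF + SFC against HF, but only 3 in HF + SFC against Control. Ifi35 was the exception in HF against Control, with log2 ratios from -0.15 to 0.12, and Ifi35 and Rsad2 were the exceptions in HF + SFC against HF. Probe sets of Cmpk2, Gbp2, Iigp1 and Trim25 differed in sign in HF + SFC against Control, and those of Cmpk2 ran from -0.60 to 0.20. The brightest probe sets of Gbp2, Ifi35 and Trim25 carry a suffix that marks possible binding to several transcripts. Dim probe sets of members did not always follow the bright one. Ddx58, with 1 bright probe set, had a dim one at 58.5 in HF + SFC, 81.5 in HF and 48.2 in Control, which kept its order, and another at 16.4 in HF + SFC, 4.81 in HF and 32.3 in Control, which did not. A dim one of Trim25 gave 56.9 in HF + SFC, 81.3 in HF and 28.6 in Control.

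**Figure D4:**
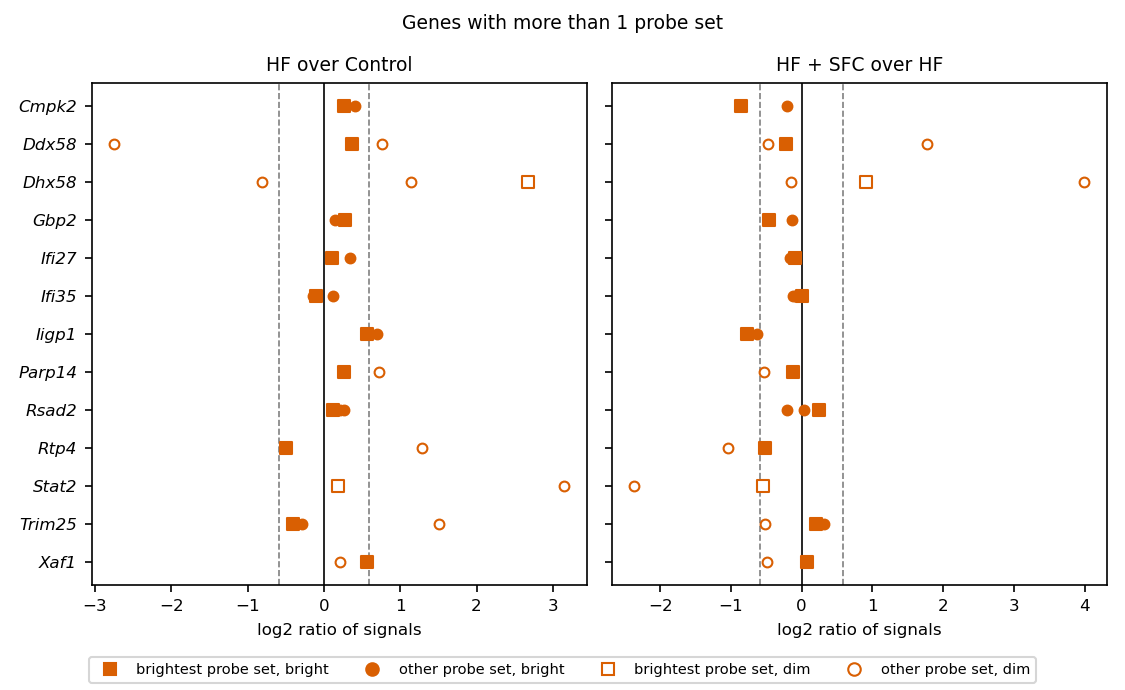
Log2 ratio of every probe set of the 13 members with more than 1, with HF over Control on the left and HF + SFC over HF on the right; a square is the probe set read for that gene, filled symbols are bright and open symbols dim, and dashed lines mark 1.5-fold. The filled symbols of Iigp1 lie close together, at 0.57 and 0.69 on the left, those of Cmpk2 lie apart, at -0.86 and -0.21 on the right, and open symbols spread as far as 4.0 on the right for Dhx58.

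Most of the 7 dim members had large ratios at signals mostly under the array medians. Cxcl10, a chemokine that attracts T cells, had 50.4 in HF + SFC, 132 in HF and 4.11 in Control. Only its HF signal stood above the array median, and its log2 ratio was 5.0 in HF against Control and -1.39 in HF + SFC against HF. Oasl2 had 59.3 in HF + SFC, 71.8 in HF and 8.13 in Control, and Dhx58, which encodes the RNA sensor LGP2, had 57.2 in HF + SFC, 30.6 in HF and 4.80 in Control. These 3 genes were lowest in Control. Oas1a had 44.5 in HF + SFC, 24.4 in HF and 92.9 in Control, and Mx1 had 47.8 in HF + SFC, 25.3 in HF and 52.3 in Control, so both were lowest in HF. Mx1 encodes a GTPase against influenza virus, whose gene carries a disabling deletion in most laboratory strains, C57BL/6 among them. Mx2 had 3.88 in HF + SFC, 12.6 in HF and 9.07 in Control, and Stat2 had 43.4 in HF + SFC, 63.2 in HF and 55.6 in Control. Of the 7, 3 passed 1.5-fold upward and 2 downward in HF against Control, where 36.2% and 27.0% of all dim genes passed. Between HF + SFC and HF the counts were 3 and 2, beside 31.5% and 29.9%, and between HF + SFC and Control 3 and 2, beside 36.7% and 27.0%. Over all 32 measured members, bright and dim, 4 passed upward and 3 downward in HF against Control, beside 17.0% and 12.2% of all genes. The same counts were 3 and 4 for HF + SFC against HF, beside 13.7% and 13.5%, and 6 and 5 for HF + SFC against Control, beside 16.5% and 12.4%. No detection calls were used, so how many of these dim readings lay above background is not known.

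The rest of the pathway was read from a list of 95 other genes by role, of which 80 were measured and 59 were bright. The 5 interferon genes measured, Ifnb1, Ifng, Ifna1, Ifna2 and Ifna4, were all dim. Their summed signal was 145 in HF + SFC, 156 in HF and 282 in Control. Ifna1 was lowest in Control, with 10.3 in HF + SFC, 3.13 in HF and 2.59 in Control, and the others were highest in Control. Without detection calls, it is not known whether these readings lay above background, so nothing is read from the sum. Of 9 receptors and Janus kinases 8 were bright, and none of these 8 passed 1.5-fold in any comparison. Among them 7 of 8 were lower in HF than in Control and 6 of 8 higher in HF + SFC than in HF. Of all 11367 bright genes, 5899 were lower in HF than in Control and 5866 higher in HF + SFC than in HF. With 8 genes on single arrays, nothing is read from this distance. Ifnar1, a chain of the type I receptor, had 238 in HF + SFC, 181 in HF and 228 in Control, and Ifnar2, its partner, had 199.6 in HF + SFC, 229 in HF and 171 in Control. On these probe sets, the 2 chains of that receptor thus differed in opposite directions in HF against Control and in HF + SFC against HF. In HF + SFC both were above Control on the same probe sets, at 1.04 times for Ifnar1 and 1.17 times for Ifnar2. The other bright probe sets of Ifnar2 gave 120 and 117 in HF + SFC, 184 and 112 in HF, and 164 and 92.4 in Control. HF was above Control on both, but HF + SFC was below HF and Control on the first and above them on the second. Jak2, a kinase of the interferon-gamma receptor, had the lowest ratio of the 8 in HF + SFC against Control, with 1451 in HF + SFC, 1435 in HF and 1718 in Control.

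Of 9 bright genes of sensing and induction, only Cgas passed 1.5-fold upward in HF against Control (5.49% of all bright genes). Only Mavs passed downward there (3.36%). None passed upward (2.96%) or downward (3.69%) in HF + SFC against HF. In HF + SFC against Control none passed upward (4.41%), and Mavs and Ticam1 passed downward (3.71%). The dim genes of this role are not described further. Mavs, the mitochondrial adaptor of RIG-I and MDA5, had 1707 in HF + SFC, 1674 in HF and 2706 in Control on its brightest probe set. The other bright probe set of Mavs gave 1121 in HF + SFC, 1201 in HF and 1199.7 in Control, without that difference. Cgas, a sensor of cytosolic DNA, had 69.5 in HF + SFC, 98.5 in HF and 65.2 in Control, close to the limit of brightness and highest in HF. A dim second probe set of Cgas gave 43.1 in HF + SFC, 12.8 in HF and 7.28 in Control, a different order. Ticam1, the adaptor of Toll-like receptor 3, had 77.7 in HF + SFC, 115 in HF and 137 in Control. Irf5 had 132 in HF + SFC, 113 in HF and 133 in Control, and Myd88, the adaptor of most Toll-like receptors, had 303 in HF + SFC, 276 in HF and 264 in Control. On these probe sets both stayed under 1.5-fold. The other bright probe set of Irf5 gave 109 in HF + SFC, 81.8 in HF and 65.0 in Control, a different order. There the log2 ratio of HF + SFC to Control was 0.74, past 1.5-fold. Among transducers and brakes, Nmi, which binds STAT proteins, had 368.3 in HF + SFC, 368.2 in HF and 573 in Control, at 1 level in both HF-fed groups. Others stayed under 1.5-fold on their brightest probe sets. Pias1, which restrains STAT proteins, had 1059 in HF + SFC, 836 in HF and 939 in Control. Its other bright probe sets gave 423 and 342 in HF + SFC, 429 and 393 in HF, and 451 and 335 in Control. On neither of these was HF + SFC above HF. The phosphatases Ptpn2 and Ptpn6 dampen the pathway. Ptpn2 had 2001 in HF + SFC, 2268 in HF and 2317 in Control, and Ptpn6 had 205 in HF + SFC, 177 in HF and 145 in Control. Isg20, an exonuclease, had 78.0 in HF + SFC, 77.2 in HF and 56.6 in Control.

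Of 34 other induced genes that were bright, 19 had more and 15 less signal in HF than in Control, while 9 had more and 25 less in HF + SFC compared with HF. The medians were 0.048 and -0.099 on the log2 scale, beside -0.012 and 0.0083 over all bright genes. Of all bright genes, 48.1% had more signal in HF than in Control and 51.6% more in HF + SFC than in HF. Over all 59 bright genes of the list, 3 passed 1.5-fold upward and 2 downward in HF against Control, beside 5.49% and 3.36% of all bright genes. The counts were 2 and 2 in HF + SFC against HF, beside 2.96% and 3.69%, and 2 and 4 in HF + SFC against Control, beside 4.41% and 3.71%. Relatives of the GTPases went both ways. Irgm2 had 443 in HF + SFC, 593 in HF and 433 in Control, the order of Igtp. Ifi47 had 188 in HF + SFC, 226 in HF and 190.3 in Control, the order of Iigp1. Gbp7 had 479 in HF + SFC, 526 in HF and 465 in Control. Gbp6 had 873 in HF + SFC, 1215 in HF and 1738 in Control, stepping down, and its other probe set gave 445 in HF + SFC, 507 in HF and 736 in Control. Slfn2, a regulator of T cell quiescence, had 167 in HF + SFC, 271 in HF and 176 in Control, and Phf11d had 189.6 in HF + SFC, 321 in HF and 251 in Control. Both had the highest signal in HF. The chemokine Cxcl9, induced by interferon-gamma, had 107 in HF + SFC, 109 in HF and 37.6 in Control, with a dim second probe set at 20.4 in HF + SFC, 36.8 in HF and 29.8 in Control. Cxcl11 had 119.98 in HF + SFC, 58.6 in HF and 81.6 in Control. Pml, the organiser of nuclear bodies, had 119 in HF + SFC, 63.3 in HF and 68.8 in Control, but 57.1 in HF + SFC, 68.8 in HF and 101 in Control on its second probe set.

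The 3 arrays were put in order for each bright member, on its brightest probe set. HF was the highest in 7 of 25, the lowest in 9 and between the others in 9. Over all bright genes HF was the highest in 32.2%, the lowest in 35.7% and between the others in 32.1%. The 7 genes highest in HF were Cmpk2, Ddx58, Gbp2, Ifi27, Igtp, Iigp1 and Parp14. The 9 lowest in HF were Bst2, Ifi35, Ifih1, Ifit2, Irf1, Irf9, Irgm1, Trim25 and Usp18. Signals stepped up over Control, HF and HF + SFC in Gbp3, Irf7, Oas2, Oasl1, Rsad2 and Xaf1, and down in Ifit1, Ifit3 and Rtp4. The step of Irf7 from Control to HF, a log2 ratio of 0.0022, changed sign under other scalings of the arrays. Second bright probe sets of Rsad2 and Ifi35 were instead highest in HF, with 295 and 544 there. They gave 257 and 501 in HF + SFC, and 247 and 503 in Control.

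Markers of other cells differed between the same arrays. Of 22 leukocyte markers 13 were bright, with 11 of 13 above Control in HF at a median log2 ratio of 0.31, and 10 of 13 below HF in HF + SFC at -0.089. In HF + SFC, 9 of 13 were above Control, at a median of 0.25. Of all 11367 bright genes, 5467 were above Control in HF, 5501 below HF in HF + SFC and 5707 above Control in HF + SFC. Of the T cell markers Cd8a was bright, with 136 in HF + SFC, 149 in HF and 139 in Control. Cd3e was dim, with 7.43 in HF + SFC, 19.8 in HF and 12.3 in Control, and so was Cd3g, with 32.3 in HF + SFC, 29.5 in HF and 21.5 in Control. The cytotoxic cell markers were dim as well, Nkg7 with 4.63 in HF + SFC, 5.14 in HF and 42.2 in Control, and Klrd1 with 42.3 in HF + SFC, 22.7 in HF and 22.2 in Control. These dim markers did not share an order over the arrays. All 8 endothelial markers were bright and went both ways, with medians of 0.088 in HF against Control and -0.017 in HF + SFC against HF. Adipocyte markers had medians of 1.58 and -0.54, fibroblast markers 0.50 and -0.061, fast fibre markers -0.14 and 0.22, and slow fibre markers -0.44 and 0.46. The 6 adipocyte markers summed to 29945 in HF + SFC, 33476 in HF and 23268 in Control. The part of these cells in the signals of the interferon-stimulated genes was not tested.

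**Figure D5:**
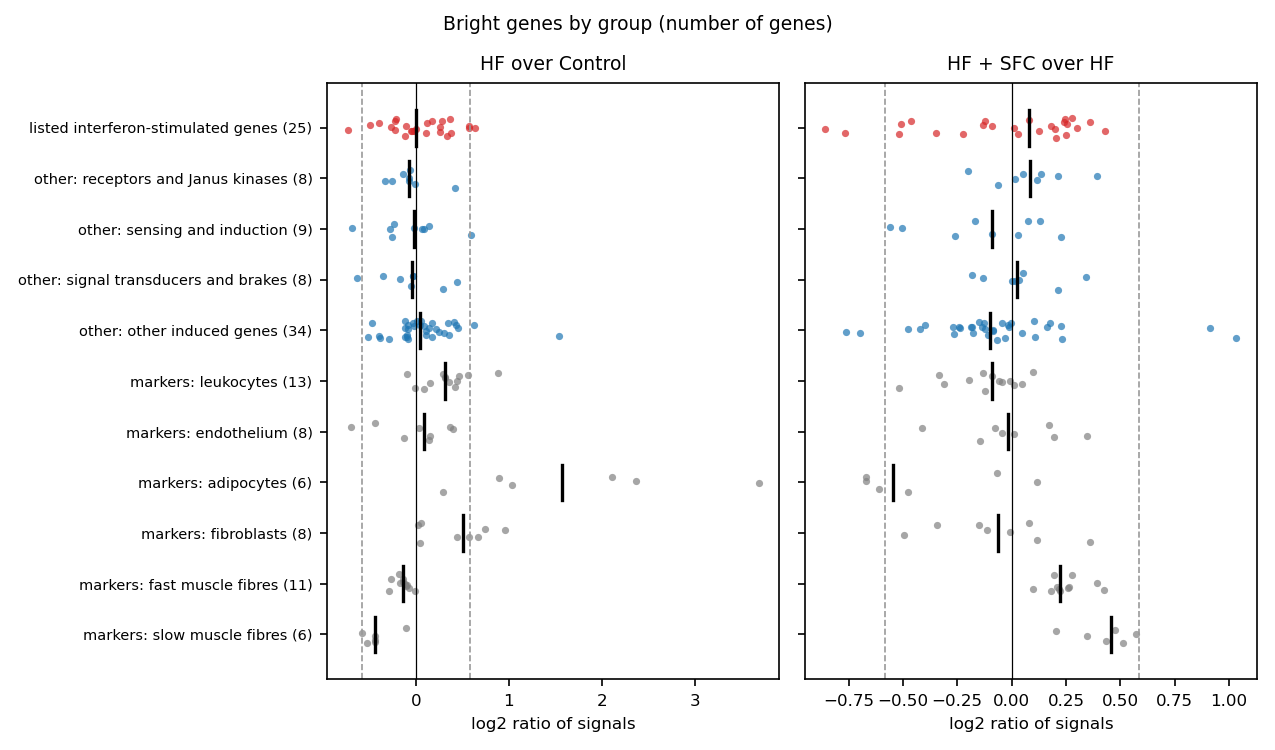
Log2 ratio of each bright gene, 1 point per gene with the number of genes in brackets, for HF over Control on the left and HF + SFC over HF on the right; black bars are medians and dashed lines mark 1.5-fold. The listed genes (red) centre near 0.0022 and 0.080, whereas adipocyte markers centre at 1.58 and -0.54 and slow fibre markers at -0.44 and 0.46.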

How the data were processed

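Gastrocnemius samples, described by the study as cDNA, were pooled by group and hybridised to Affymetrix GeneChip mouse arrays. The values of 45101 probe sets are linear intensities that the authors computed with MAS5, named in the submitters' notes with no version. Each array had a mean of 500.0 once 2% was trimmed from both ends. Detection calls were not used. There were 64 control probe sets. A single symbol was annotated to 34945, more than 1 to 932 and none to 9160. RefSeq gene IDs (GRCm38.p6) updated the symbols for 34741. Log2 ratios were taken with no offset.

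The members and lists were chosen with earlier results of these data known. All measured members are named. Genes of the other list are named when bright and past 1.5-fold or at the extremes of their role, and the GTPase relatives Irgm2, Ifi47 and Gbp7 were chosen after their values were seen. The alternatives tried were averaging all probe sets of a gene, quantile normalization, median centring, an offset of 50, removal of probe sets that bind several transcripts, the 75th percentile as limit, no limit, a 2-fold threshold and the annotation's own symbols. Scripts were tested on simulated data. No test was run, and the number of arrays limits the precision. Python 3.11.15, numpy 2.4.6, pandas 2.3.3 and matplotlib 3.10.9 were used.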

Additional observations from a re-analysis of the deposited data

How the results depend on the processing

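With 1 array per group, no replicate could be left out. No paired analysis was possible because the groups share only 1 replicate number. The medians of the bright interferon-stimulated genes lay near 0, and their sign depended on the processing. In HF against Control the median of 0.0022 became -0.029 after quantile normalization, -0.080 with arrays centred on their medians and -0.022 with the limit at the 75th percentile (11 members). It was 0.18 with the mean of all probe sets (0.00078 over all genes past the limit), 0.11 without probe sets of several transcripts (-0.012 over all) and 0.12 over all 32 measured members (0.0066 over all). In HF + SFC against HF the median of 0.080 was 0.025 with the mean of all probe sets and 0.0086 with the 75th percentile. In HF + SFC against Control the median of 0.029 was -0.066 with centred arrays and -0.090 with the 75th percentile. Centring lowered the median of all bright genes likewise, to -0.094 in both comparisons with Control.

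Counts past 1.5-fold were small and moved with the setting. Brackets give the percent of all genes that passed under the same setting. In HF against Control, the 1 higher gene (5.49%) became 2 with the mean of all probe sets (6.65%) and 4 over all measured members (17.0%). It became 0 with centring (4.06%), an offset of 50 (2.69%), the 75th percentile (1.52%) or a 2-fold threshold (1.28%). The 1 lower gene (3.36%) became 3 over all measured members (12.2%) and 0 with the offset (1.70%), the 75th percentile (1.07%) or 2-fold (0.64%). In HF + SFC against HF, the 0 higher genes (2.96%) became 3 over all measured members (13.7%). The 2 lower genes (3.69%) became 4 over all measured members (13.5%), 1 with the 75th percentile (0.64%) and 0 at 2-fold (0.73%). In HF + SFC against Control, the 3 higher genes (4.41%) became 6 over all measured members (16.5%) and 1 with centring (3.18%) or the offset (2.15%). They became 0 with the 75th percentile (0.94%) or 2-fold (1.11%). The 3 lower genes (3.71%) became 5 over all measured members (12.4%) and 0 with the 75th percentile (1.05%). They became 1 with the mean of all probe sets (5.14%), the offset (1.74%) or 2-fold (0.73%). The stricter limit leaves fewer genes to count. Why the counts were larger with the dim members was not tested. The other 44 of 78 values stayed within 0.05 of the median or within 1.5 times the count. Under quantile normalization, centring and the offset, signs of bright members changed only for Irf7 in HF against Control, Ifi35 in HF + SFC against HF, and Ifi27, Ifih1, Igtp, Irf1, Irgm1 and Usp18 in HF + SFC against Control, all with ratios close to 1.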
